A study of Saccharomyces cerevisiae with 4 samples.

Results

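FLC2 (YAL053W), FLC1 (YPL221W) and CMK2 (YOL016C) are 3 yeast genes whose products act at the meeting point of flavin transport, calcium and the cell wall. Their transcript ratios were read from 6 spots, 2 for each gene, of the 896 spots on a dedicated cell wall array on which 353 genes are named. The genes were taken by name. They had been chosen by their positive ratios in this same comparison, so their own ratios are given as a description with no test. FLC3, the remaining FLC family gene, was not analysed here.

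The RNA came from a hog1 deletion strain of Saccharomyces cerevisiae in the BY4741 background. HOG1 encodes a MAP kinase that answers to high osmolarity, and both RNAs of every array lack it. The Congo Red RNA came from cells kept for 4 h with 30 µg/ml of the dye, which binds chitin and glucan and disturbs wall assembly. The untreated RNA came from the other part of the same culture, grown in rich medium at 24 °C without the dye. Both RNAs were hybridised together on each of 4 arrays, and channel 2 held the Congo Red RNA on arrays 1 and 3 but the untreated RNA on arrays 2 and 4. Strains that keep HOG1 were not analysed here. The labels do not say whether each array had its own culture, so the p-values below cover variation from array to array that may be purely technical.

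Flc proteins are membrane proteins held to carry the cofactor FAD into the endoplasmic reticulum, where the oxidase Ero1 uses it to form disulphide bonds in secreted proteins. The family is distantly related to TRP channels, and Flc2 has also been linked to calcium handling. Cmk2 is a protein kinase switched on by calcium-bound calmodulin. Wall stress in yeast lets calcium into the cell, calmodulin then activates the phosphatase calcineurin, and calcineurin sends the transcription factor Crz1 to the nucleus, where it turns on wall and ion transport genes and CMK2 itself.

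All values are log2 ratios of the 2 channels as deposited, and the sources used here do not name the numerator. It was taken to be the Congo Red RNA, which is likely only because genes known to answer to wall stress then come out higher. If the ratio ran the other way, every higher gene below would be lower and the reverse. Arrays of opposite channel order correlated at a mean of 0.15 over all spots, against 0.70 and 0.77 for the pairs of like order. Over named genes the mean for opposite order was 0.35 (0.26 to 0.44), against 0.73 and 0.75. These are Pearson's r across spots or genes, which are not independent replicates. The correlations alone do not settle whether arrays 2 and 4 were already turned. With those arrays turned, the mean log2 ratio was 0.28 for FLC2, -0.019 for FLC1 and 0.30 for CMK2. Limma then called 0 genes of the whole table, against 72 of 348 as deposited.

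FLC2 had the highest mean ratio of the 3 genes and the widest spread, and was the highest of them on arrays 1, 2 and 3. Averaged over its spots, its log2 ratio was 1.74 on array 1, 2.83 on array 2, 3.00 on array 3 and 0.81 on array 4. Arrays 2 and 3 were high and array 4 was low, and all 4 values were above 0. The mean was 2.09 ± 1.03 (SD, n = 4), or 4.27-fold higher with Congo Red, and the highest array exceeded the lowest by 4.59-fold in ratio. Among the genes with a value on the array, FLC2 stood in place 12 of 343 from the top on array 1, 4 of 342 on array 2, 4 of 345 on array 3 and 63 of 342 on array 4. By its mean it was in place 7 of the 348 tested genes, or in place 81 with arrays 2 and 4 turned, and by its SD over arrays in place 33 from the largest.

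**Figure D1:**
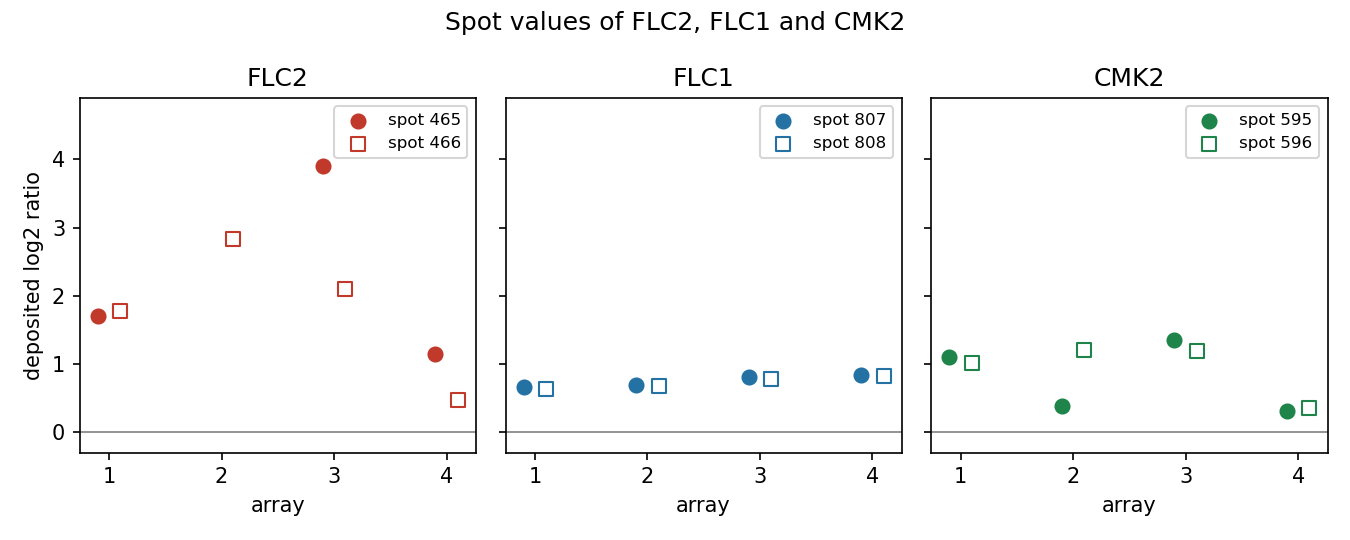
Deposited log2 ratio (vertical axis) of each spot on arrays 1 to 4 (horizontal axis), filled circles for the lower-numbered spot and open squares for its neighbour. The spots of FLC1 overlap on every array, those of FLC2 lie apart on arrays 3 and 4, and those of CMK2 lie apart on array 2.

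The spots of FLC2 did not give one value. Spot 465 had log2 ratios of 1.70, 3.91 and 1.14 on arrays 1, 3 and 4, and no value on array 2. Spot 466 had 1.78, 2.83, 2.10 and 0.47 on arrays 1 to 4. The spots were close on array 1, where spot 465 minus spot 466 was -0.09. On array 3 that difference was 1.81, and on array 4 it was 0.67. The mean size of the difference over these 3 arrays was 0.85, against a median of 0.08 over the 332 genes with duplicate spots valued on at least 3 arrays, and 12 of them had a larger one. The gene average on array 2 rests on spot 466 alone. Spot 465 by itself averaged 2.25 over 3 arrays and spot 466 averaged 1.80 over 4, so either spot gave a positive mean, with 7 of 7 deposited values above 0.

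The value of spot 465 on array 3 is, to 4 decimals, the log2 of 15 to 1. On that array 68 of 843 values, or 8.07%, equalled, within 6e-05, the log2 of one whole number over another with both at most 15 and not the same, and 1 further spot, which has no gene name here, carried the same value. Signal intensities were not analysed here, so whether this spot was close to the background was not tested. Leaving out every value of this kind up to 20 on arrays 1 to 3, a choice made after seeing the data, brought the mean of FLC2 to 1.87. The only FLC2 value on array 2, that of spot 466, equals the log2 of 64 to 9 and was kept. With whole numbers up to 64, 35.0% of the values on array 2 matched.

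FLC1, which encodes a second member of the same carrier family, had lower and nearly equal ratios. Its log2 ratio was 0.65 on array 1, 0.68 on array 2, 0.79 on array 3 and 0.84 on array 4. No array stood apart, and the whole range was 0.19. How far the probes tell the related FLC transcripts apart was not tested. The mean was 0.74 ± 0.09 (SD, n = 4), 1.67-fold higher with Congo Red, in place 54 of 348 tested genes (210 with arrays 2 and 4 turned). Of these, 9 genes had a smaller SD over arrays than FLC1.

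The duplicate spots of FLC1 lay closer together than its arrays. From array 1 to array 4, spot 807 read 0.66, 0.69, 0.81 and 0.84 on the log2 scale. Spot 808 had 0.64, 0.68, 0.78 and 0.83. Their difference was 0.03 at most and 0.02 on average, which only 5 of the 332 genes with duplicate spots undercut.

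**Figure D2:**
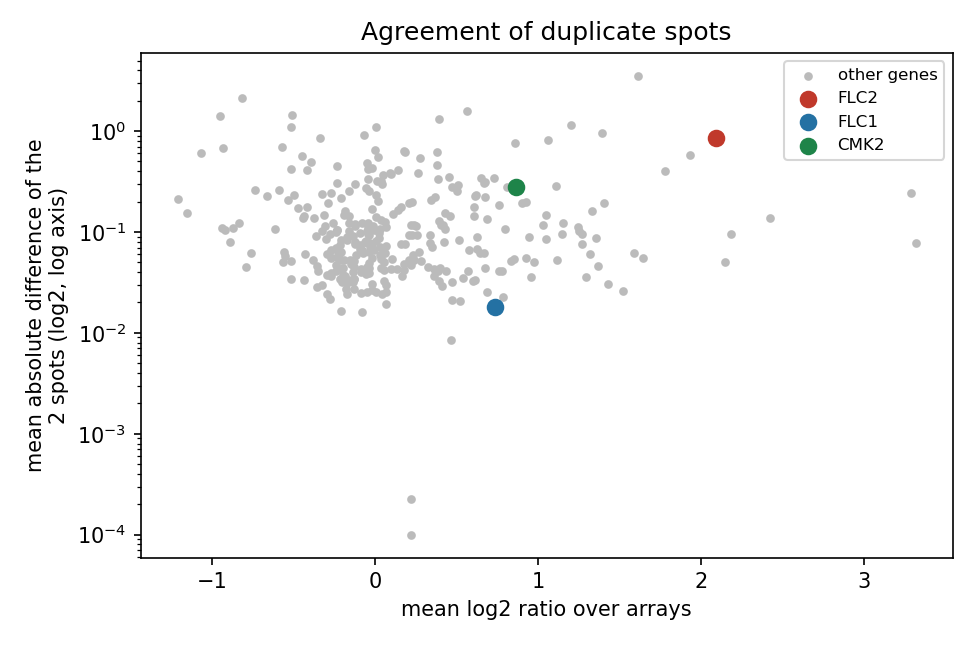
Mean absolute difference between the 2 spots of a gene over the arrays (vertical axis, log2 units on a log axis) against the gene's mean log2 ratio (horizontal axis), 1 point for each of 332 genes. FLC2 is in place 13, CMK2 in place 56 and FLC1 in place 327 from the largest difference.

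CMK2, the gene of the calmodulin-dependent kinase, lay between the FLC genes in spread. Its log2 ratio was 1.06 on array 1, 0.79 on array 2, 1.28 on array 3 and 0.34 on array 4. As for FLC2, array 3 was the highest and array 4 the lowest, and all values were above 0. The mean was 0.87 ± 0.41 (SD, n = 4), 1.82-fold higher with Congo Red, in place 44 of 348 tested genes (73 with arrays 2 and 4 turned). Within an array it ranged from place 32 of 345 on array 3 to place 115 of 342 on array 4.

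On 3 of the 4 arrays the spots of CMK2 were close. From array 1 to array 4, spot 595 read 1.10, 0.39, 1.36 and 0.31 on the log2 scale. Spot 596 had 1.02, 1.20, 1.20 and 0.36. On array 2 spot 595 lay 0.81 below spot 596, while on the other arrays the difference was at most 0.16 in size. The low value of spot 595 on array 2 equals the log2 of 17 to 13, and the value of spot 596 there that of 23 to 10. On that array 113 of 823 values, or 13.7%, equalled the log2 ratio of unequal whole numbers up to 20. Spot 595 alone gave a mean of 0.79 and spot 596 alone 0.94.

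**Figure D3:**
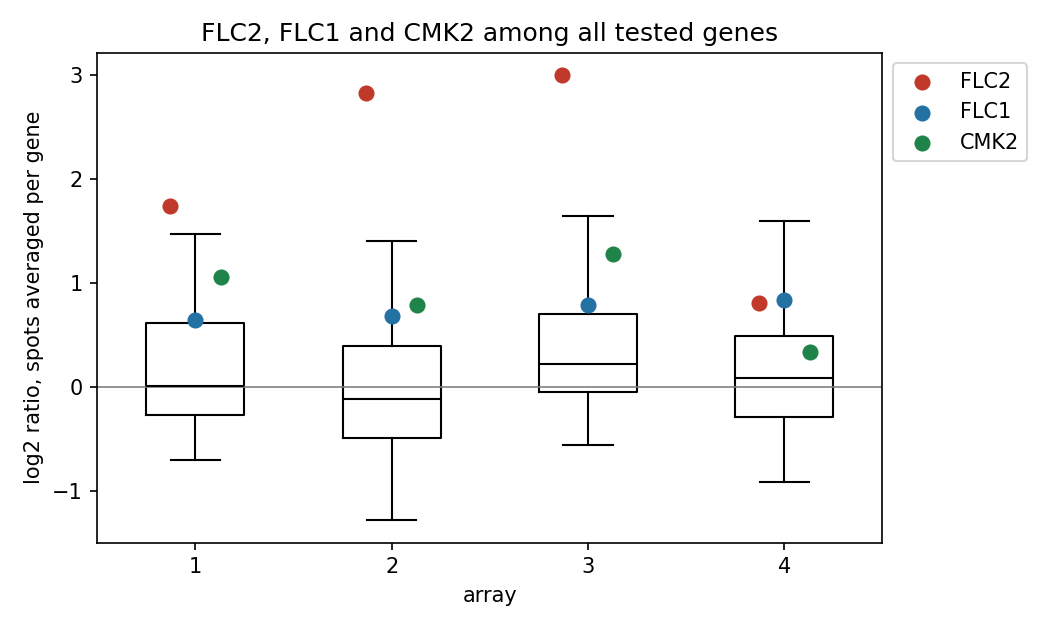
Log2 ratio with spots averaged per gene (vertical axis) on arrays 1 to 4 (horizontal axis). Boxes show the quartiles of all tested genes with the median as a line, whiskers run from the 5th to the 95th percentile, and coloured points are FLC2, FLC1 and CMK2. FLC2 lies above the upper whisker on arrays 1 to 3 and beside FLC1 on array 4.

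Set side by side on each array, FLC2 exceeded CMK2 on 4 of 4 arrays. The log2 ratio of FLC2 minus that of CMK2 was 0.68, 2.04, 1.73 and 0.47 on arrays 1 to 4, with a mean of 1.23 ± 0.77 (SD, n = 4). FLC2 minus FLC1 was 1.10, 2.15, 2.21 and -0.03, so the carrier genes lay within 0.03 of each other on array 4 and further apart on the other arrays. On array 4 the FLC2 average stands between spots at 1.14 and 0.47, of which neither is close to the 0.84 and 0.83 of the FLC1 spots. CMK2 minus FLC1 was 0.41, 0.11, 0.48 and -0.50, with a mean of 0.13 ± 0.45, smaller than its spread. By mean ratio the order was therefore FLC2, CMK2 and FLC1, in which the lower pair did not differ beyond the spread between arrays. With arrays 2 and 4 turned, CMK2 (0.30) came before FLC2 (0.28). The turned means stand for Congo Red over untreated only if those arrays were not already turned. All comparisons here are of ratios, and say nothing of which transcript was more abundant.

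Channel order sets arrays 1 and 3 against arrays 2 and 4, a contrast that a choice by the mean ratio does not fix, although it is read from the same 4 arrays. The choice does limit it. With all values of a gene above 0, as here, the coefficient given below cannot exceed the mean ratio in size. FLC2 averaged 2.37 on arrays 1 and 3 and 1.82 on arrays 2 and 4. CMK2 averaged 1.17 and 0.56, and FLC1 0.72 and 0.76, on the same pairs. The channel order coefficient, by which arrays 1 and 3 lie above and arrays 2 and 4 below the mean of all 4, was 0.28 for FLC2, -0.019 for FLC1 and 0.30 for CMK2, which by construction are also their means with arrays 2 and 4 turned. By limma on all 4 arrays, 0 of these genes passed, against 4.88% of the 328 genes with a value on every array. A count of 0 among so few genes is near that share. In the same fit 0 of them had an unadjusted p under 0.05. The limma adjusted p was 0.709 for FLC2, 0.903 for FLC1 and 0.207 for CMK2. For FLC2 the coefficient changed with single arrays left out. It was 0.78 without array 2, and -0.04 and -0.23 without arrays 3 and 4. Each such fit leaves 1 channel order with a single array, which without array 2 is the low array 4.

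Over the whole table, limma called 72 of 348 tested genes, or 20.7%, at an adjusted p under 0.05, with 17.0% higher and 3.74% lower. The 59 higher ones include the 3 genes described here. These 3 were picked by their positive ratios, so the call was no test of them. The median mean log2 ratio of the tested genes was 0.02, and the median of single arrays ran from -0.11 to 0.22.

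Beside CMK2, the calcium signalling genes on the array did not pass the test in either direction. Of 26 genes in the list, which covers calcium channels, calmodulin, calcineurin, Crz1, calcium pumps and related regulators, 6 were on the array, and of the 5 besides CMK2 limma called 0 higher and 0 lower, with 1 at an unadjusted p under 0.05. Against 17.0% higher and 3.74% lower over the whole table, a count of 0 among 5 genes is near the background. Their median was 0.35, against 0.02 for all tested genes. CRZ1 (YNL027W), the gene of the transcription factor, had log2 ratios of 0.17, -0.57, -0.20 and -0.72 (arrays 1 to 4; mean -0.33 ± 0.40, limma adjusted p = 0.29). It was below 0 on 3 arrays, where CMK2, chosen for its positive ratios, was above 0. RCN1, which encodes a regulator of calcineurin and is itself a Crz1 target, had -0.13, 0.11, 0.15 and -0.35, a mean of -0.05 ± 0.23 (limma adjusted p = 0.853).

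The remaining 3 had positive means and did not pass. ECM7, a gene linked to calcium influx, averaged 0.46 ± 0.33 and was above 0 on 4 of 4 arrays (limma adjusted p = 0.12). FIG1, a membrane protein gene of calcium entry during mating, averaged 0.35 ± 0.26, also above 0 on 4 of 4 arrays (limma adjusted p = 0.159). PLC1, the gene of phospholipase C, ranged from -0.10 on array 2 to 1.47 on array 1 and averaged 0.51 ± 0.68 (limma adjusted p = 0.286). CMK1, the gene of the related calmodulin-dependent kinase, and the calcineurin subunit genes were not analysed here.

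**Figure D4:**
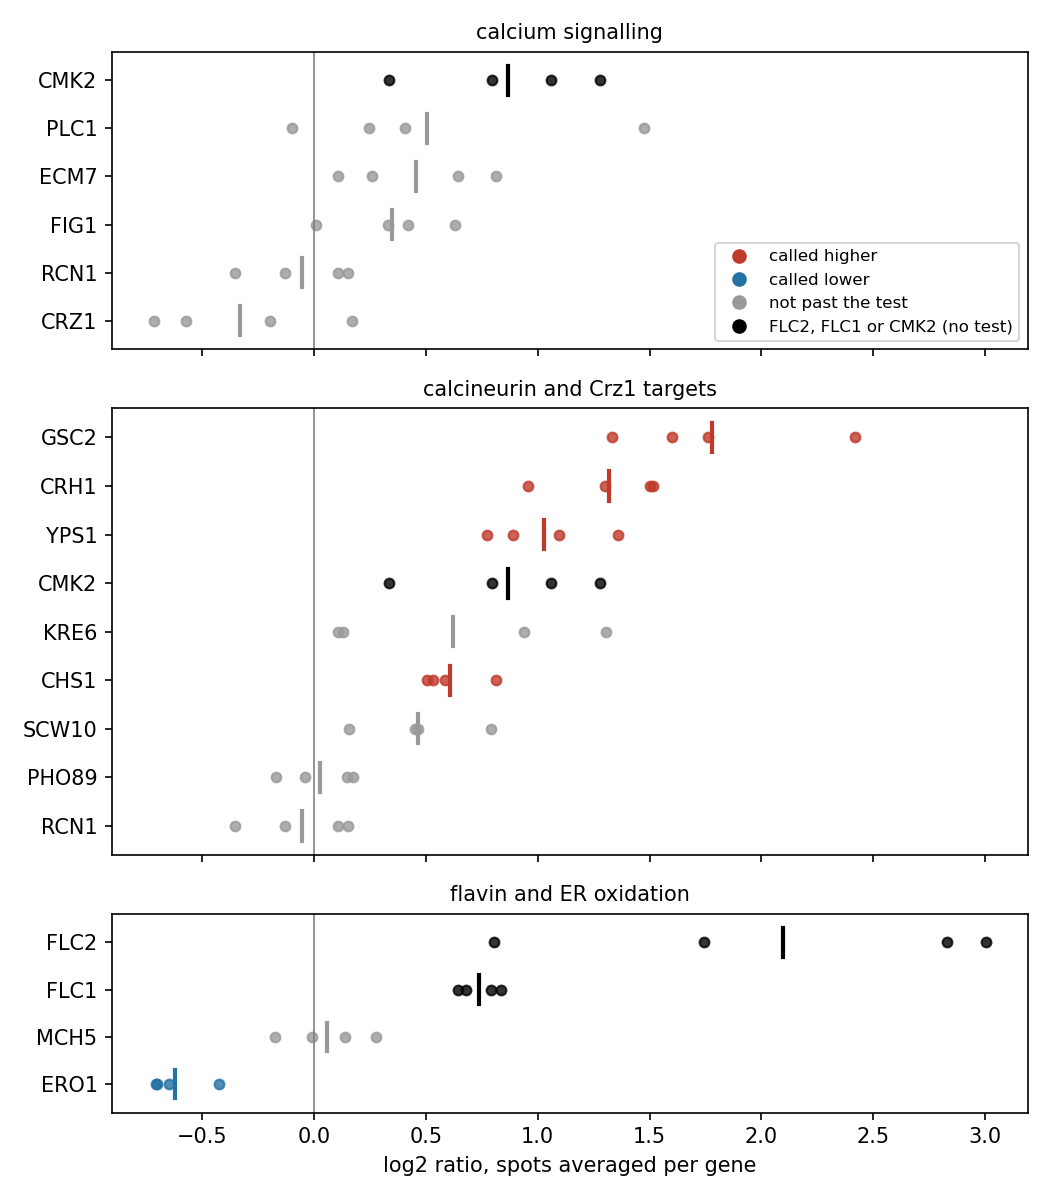
Log2 ratios (horizontal axis, spots averaged per gene) of each gene of the 3 lists found on the array, with 1 point for each of the 4 arrays and a bar at the mean. Red genes were called higher and the blue gene lower by limma, grey genes did not pass, and black marks FLC2, FLC1 and CMK2, whose ratios are shown as a description.

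Among genes known as calcineurin and Crz1 targets, several were higher. Of 14 listed genes 9 were on the array, and of the 8 besides CMK2 limma called 4 higher and 0 lower, against 17.0% and 3.74% of all tested genes. Their median log2 ratio was 0.62, against 0.02. The list was chosen with earlier results of these data known, so these counts are a description only. Their direction also rests on the numerator, which was itself taken so that known wall stress genes come out higher. GSC2, which encodes the inducible catalytic subunit of glucan synthase, was 3.43-fold higher (log2 1.78 ± 0.46, limma adjusted p = 0.00504). CRH1, whose product links chitin to glucan, was 2.49-fold higher (1.32 ± 0.26, limma adjusted p = 0.00489). YPS1, the gene of a surface protease, was 2.04-fold higher (1.03 ± 0.26, limma adjusted p = 0.00845).

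CHS1, a chitin synthase gene used in repair at cell separation, was the fourth, at 0.51, 0.82, 0.53 and 0.59 (log2 ratio, arrays 1 to 4). It was 1.53-fold higher (limma adjusted p = 0.0195), and the call was lost without any one of the 4 arrays (adjusted p = 0.0574 to 0.0717). GSC2, CRH1 and YPS1 are known targets of the cell wall integrity pathway as well, so the list does not stand for calcineurin alone. Of the 4 that did not pass, RCN1 is given above, and PHO89, a phosphate transporter gene, averaged 0.03 ± 0.16. SCW10, a glucanase-like wall protein gene (0.47 ± 0.26), and KRE6, a gene of β-1,6-glucan synthesis (0.62 ± 0.60), did not pass either, but both did with a term for channel order (limma adjusted p = 0.0314 and 0.00964). In that model 25.0% of all tested genes were called higher. KRE6 averaged 1.12 on arrays 1 and 3 and 0.12 on arrays 2 and 4, and its channel order coefficient did not pass (limma adjusted p = 0.0674).

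ERO1, whose product uses the cofactor that the Flc proteins are held to carry, was lower, while the FLC genes were chosen for positive ratios. Of 21 listed genes of flavin supply and oxidation in the endoplasmic reticulum, 4 were on the array, and besides FLC1 and FLC2 these were ERO1 and MCH5. ERO1 (YML130C), the gene of the FAD-dependent oxidase, measured -0.70, -0.70, -0.42 and -0.65 (log2 ratio, arrays 1 to 4). All 4 values lay below 0. The positive sign of FLC1 and FLC2 follows from how they were picked, so the contrast with them was not tested. ERO1 fell 1.53-fold (log2 -0.62 ± 0.13, limma adjusted p = 0.019), a call lost without array 1, 2 or 4 (adjusted p = 0.0652, 0.064 and 0.0718). MCH5, which encodes the riboflavin transporter of the plasma membrane, averaged 0.06 ± 0.19 and did not pass (limma adjusted p = 0.838).

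The genes with the most similar ratios were found as those with the smallest root mean square difference in log2 ratio over the 4 arrays, among 327 other genes with 4 values. FLC1 had close matches. They were ANS1, a gene for a putative GPI-anchored protein, at a difference of 0.07, PUN1, a plasma membrane protein gene, at 0.12, and MSG5, the gene of a MAP kinase phosphatase, at 0.14. CMK2 was closest to YNR065C at 0.21, to CHS7, needed for export of the chitin synthase Chs3, at 0.27, and to YPS1 at 0.28. YNR065C was also lowest on array 4, with log2 ratios of 0.80, 0.75, 0.96 and 0.41.

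FLC2 had no close match. Its nearest genes were the mannosyltransferase gene KTR2 at 0.80, GSC2 at 0.90 and the membrane protein gene PRM5 at 0.99, each of which had a mean of similar size with an SD of 0.46 or less. Each of these 3 lay above FLC2 on array 4, where KTR2 had 2.00, GSC2 1.76 and PRM5 2.47, against 0.81 for FLC2. A short distance over 4 arrays describes like ratios only.

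**Figure D5:**
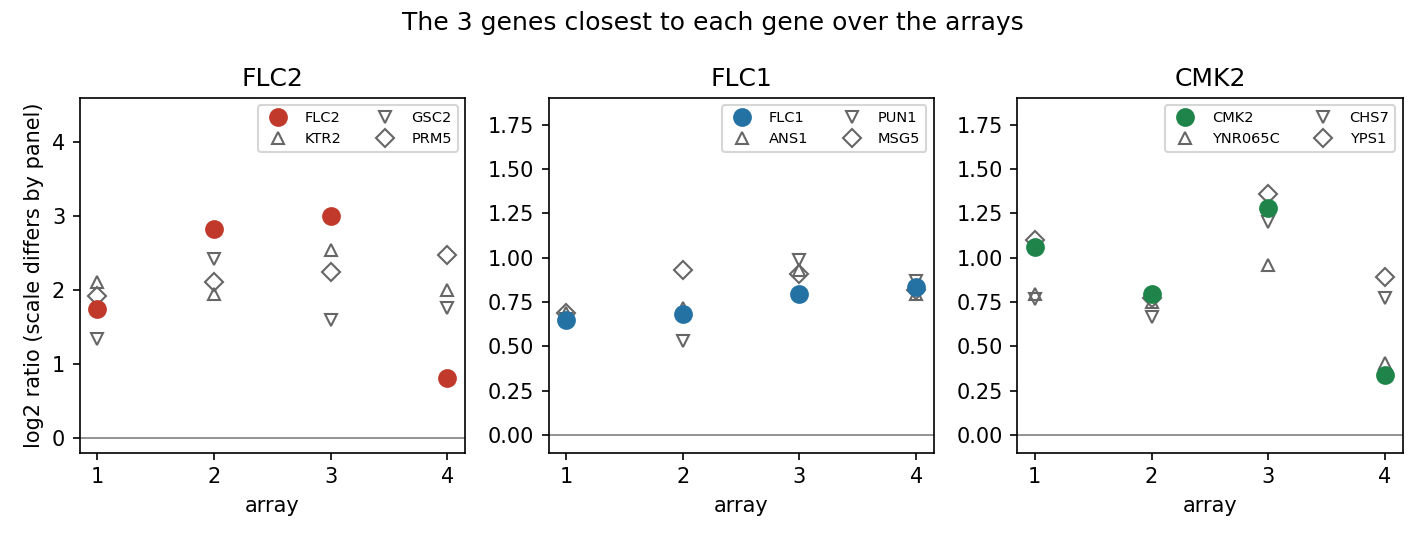
Log2 ratios (vertical axis, spots averaged per gene, with a wider scale for FLC2) on arrays 1 to 4 (horizontal axis) for each gene in colour and its 3 closest genes as open symbols. The genes closest to FLC1 lie near it, with PUN1 below and MSG5 above it on array 2 and all 3 above it on array 3. FLC2 lies above its closest genes on arrays 2 and 3 and below them on array 4.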

How the data were processed

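The values are log2 ratios of the 2 channels per spot as deposited. The sources used here name no scanner, background correction, normalization or numerator. Base 2 was read from values that match ratios of small whole numbers. Arrays 1 to 3 have 4 decimals and array 4 has 2.

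Through the platform's old annotation 724 spots have 1 gene, 10 several and 162 none here. All 353 named genes matched the R64 gene table by gene identifier. Spots were averaged per gene and array. The 348 genes with values on at least 3 arrays were tested against 0 with limma 3.58.1 in R 4.3.3 (Benjamini-Hochberg, threshold 0.05), and channel order on the 328 with 4 values. The fits were tested on simulated data. The number of arrays limits the precision.

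The genes and the 3 lists were chosen with earlier results of these data known. Named were the 3 genes, all listed genes on the array, the 3 closest genes to each, gene-order neighbours on the array and the genes next to the threshold. Alternatives were centring, scaling, turning, single spots, missing values, channel order, a fold minimum, each array left out and, added after seeing the data, small whole-number ratios left out. Figures used matplotlib 3.10.9 in Python 3.11.15. Probe, promoter and protein sequences were not used here.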

Additional observations from a re-analysis of the deposited data

How the results depend on the processing

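The means of FLC2, FLC1 and CMK2 stayed positive, and within 1 SD over arrays of the value given. This held under centring, scaling, either single spot, small whole-number ratios left out and each array left out. Every deposited spot value of these genes was above 0, so leaving out spots or arrays could not turn a mean negative. Leaving out 1 of 4 arrays also cannot move a mean by 1 SD, so it was no test of either point. With 1 array left out the means ran from 1.79 to 2.52 for FLC2, from 0.71 to 0.77 for FLC1 and from 0.73 to 1.04 for CMK2. With arrays 2 and 4 turned they were 0.28, -0.019 and 0.30, and 0 genes were called higher and 0 lower, so the calcineurin target list had 0 higher and the flavin list 0 lower. The table-wide counts of 59 higher and 13 lower went to 33 to 46 higher and 3 to 6 lower with 1 array left out, the fewest higher without array 3, and 39 without array 1. There were 23 lower after centring, 30 after centring and scaling, and 34 with a term for channel order. The calcineurin target list had 3 higher genes whichever array was left out, and the flavin list 0 to 1 lower. With 1 array left out, 1 channel order has a single array. The channel order coefficient of FLC2 then ran from -0.23 to 0.78 (-0.04 without array 3, -0.23 without array 4, and 0.78 without array 2). That of FLC1 ran from -0.058 to 0.019 and was 0.018 without array 1 and 0.019 without array 4, and that of CMK2 ran from 0.19 to 0.42. The cause of these changes was not tested, though fits on 3 arrays have fewer samples. No paired analysis was possible because the arrays form a single group, in which each ratio already pairs the 2 RNAs of an array. Spot brightness over background was not analysed here.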

Other observations

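Of the genes next to FLC2, FLC1 and CMK2 in the gene order, the array values cover 1, ACS1, the acetyl-CoA synthetase gene beside FLC2. On arrays 1 to 4 it measured 0.74, -3.31, 0.74 and -1.92 (log2 ratio), above 0 on arrays 1 and 3 and below 0 on arrays 2 and 4, with a mean of -0.94 ± 2.02 (limma adjusted p = 0.473). These are averages of ACS1 spots that differed by 0.67 in mean size, in place 17 of 332 from the largest. FLC2, chosen for its positive ratios, was above 0 on all of these arrays.

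Of the genes on either side of the threshold, YCL049C passed at a mean log2 ratio of 0.44 ± 0.13 (limma adjusted p = 0.04996), and PRB1, a vacuolar protease gene, missed it at 0.81 ± 0.48 (limma adjusted p = 0.0513).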
